A study of Arabidopsis thaliana with 8 samples.

Results

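GIGANTEA (GI) and 5 other clock genes were followed in whole roots of Arabidopsis thaliana, as 6 of the 22810 probe sets on the array. GI, COR27 and AT4G33980 were found by name in the array's platform annotation. CCA1 (AT2G46830), LHY (AT1G01060) and TOC1 (AT5G61380) carry no name there and were read by their array IDs. GI was chosen by its measured difference between pye-1 and wild type with iron in an earlier look at these arrays. COR27 and AT4G33980 were also selected on measured values, and the comparison that selected them is not recorded. The changes of these 3 genes are therefore given as descriptions with no p of their own, and counts that include them support nothing. CCA1, LHY and TOC1 were added as central clock genes.

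The study set the mutant pye-1 against wild type (WT), both in the Columbia ecotype, on 2 media, to see how loss of the iron-response regulator POPEYE (PYE) alters the root transcriptome. The 4 groups of 2 arrays are pye-1 without iron (-Fe), pye-1 with iron (+Fe), WT without iron and WT with iron. All plants were 7 days past germination, had been raised on the medium with iron, and spent their last 24 h on one of the media. In the -Fe medium the iron salt was replaced by ferrozine, which binds ferrous iron, at 0.3 mM. Roots were cut below the junction with the hypocotyl, and the labels describe 2 biological replicates per line, each a pool of about 320 roots. The sources used here give neither the light cycle nor the hour of harvest, nor what separates the biological replicates.

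The plant circadian clock is a network of repressors that follow each other through the day. CCA1 and LHY are MYB transcription factors that peak around dawn and hold down evening genes such as TOC1 and GI, and TOC1 in turn represses CCA1 and LHY. GI is a large protein that stabilises the photoreceptor ZEITLUPE and promotes flowering through CONSTANS. COR27 and AT4G33980, its close relative also known as COR28, are regulated by cold and light and repress clock genes. Because these transcripts rise and fall every day, their level in a sample depends on the hour at which it was taken.

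Levels are Affymetrix MAS5 signals on a linear scale, and every change is a log2 difference between means of 2 arrays ± the standard error of a limma fit over all 8 arrays. Median signal was 91.4 to 97.6 on the 8 arrays. The control level, which is the brightest of 27 bacterial control probe sets on an array, was 11.7 to 23.7. The number of arrays limits the precision. PYE, the mutated gene, read 25.03 and 28.2 in pye-1 without iron, against 138 and 149 in WT without iron. With iron it read 19.1 and 15.0 in pye-1, against 56.7 and 65.1 in WT. The genotype labels of all 8 arrays and the iron labels of WT fit the PYE readings. In pye-1 the readings with iron lay close to the control levels of those arrays, 18.7 and 12.8, so PYE checks the iron labels there only weakly. Among root markers, the root hair expansins EXPA7 and EXPA18 read 408 to 709 and 286 to 704, and the other 8 of the 10 root markers listed have no named probe set.

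GI transcript was about 3 times less abundant in pye-1 roots than in WT roots on both media, and its levels with and without iron overlapped in each genotype. Without iron GI read 113 and 134 in pye-1, against 401 and 413 in WT. With iron it read 139.8 and 104 in pye-1, against 313 and 402 in WT. All 4 pye-1 arrays lay below all 4 WT arrays, and the highest GI signal was 3.99 times the lowest.

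**Figure D1:**
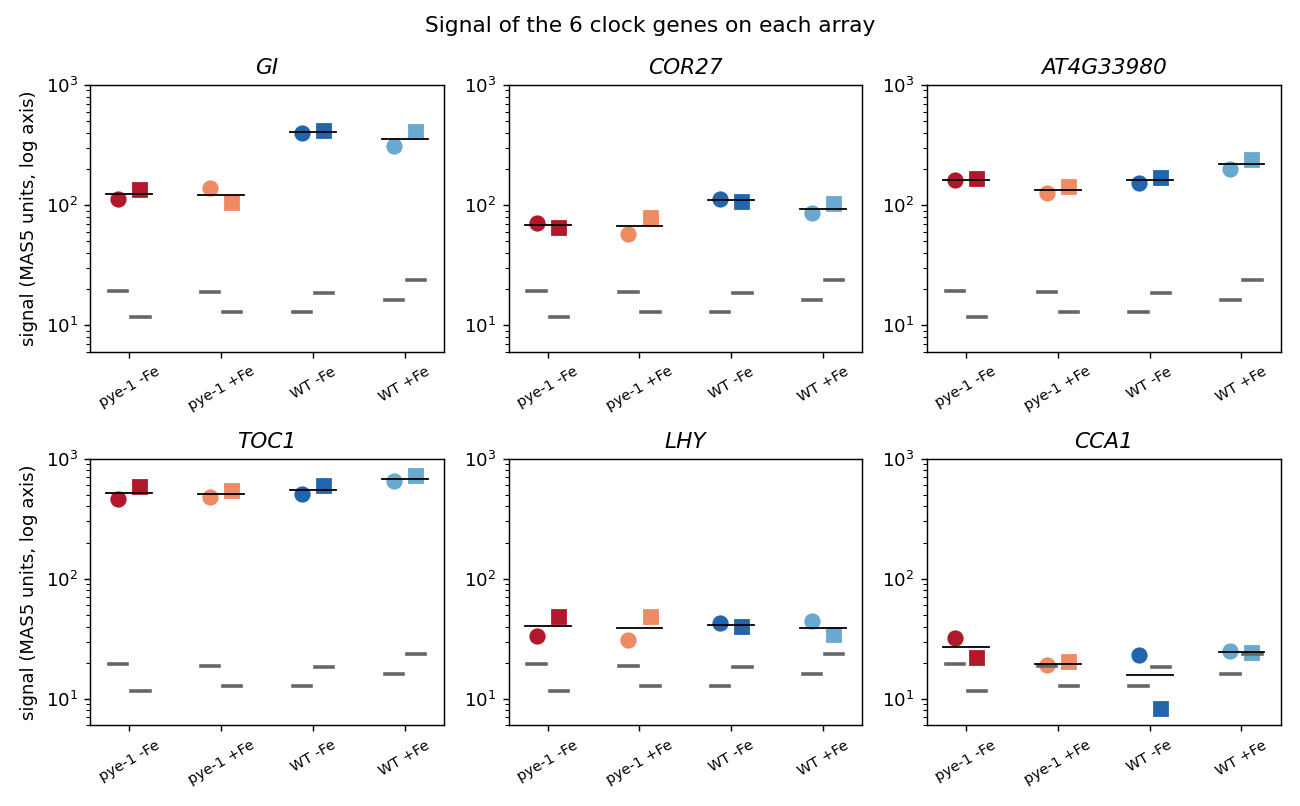
Signal of the 6 genes on each array (MAS5 units, log axis), with pye-1 to the left of WT and -Fe to the left of +Fe. Circles are replicate 1, squares replicate 2, black lines group means and grey ticks each array's control level. GI lies at 104 to 139.8 on the pye-1 arrays and at 313 to 413 on the WT arrays, and CCA1 lies at 8.29 to 32.2, near the control levels.

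GI was 3.31-fold lower in pye-1 than in WT without iron, with a log2 change of -1.73 ± 0.19, and -1.83 and -1.63 between arrays of replicate 1 and of replicate 2. With iron it was 2.95-fold lower, with a change of -1.56 ± 0.19, and -1.16 and -1.96 between the numbered arrays. By size, these changes ranked 42 and 30 among the 15922 probe sets tested, which follows from the choice of GI and is not read as a result. The groups did not overlap, with pye-1 lower on both media, for GI and COR27 among the 6 genes and for 3.45% of all tested probe sets. The order of the GI levels was WT -Fe, WT +Fe, pye-1 -Fe and pye-1 +Fe, with means of 407, 357, 123 and 122. Only the step between the genotypes exceeded the spread of the arrays.

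Between the media GI differed by no more than the arrays of a group did. In WT the change without iron against with iron was 0.20 ± 0.19, 0.36 in replicate 1 and 0.04 in replicate 2, and the arrays without iron (401 and 413) overlapped those with iron (313 and 402). In pye-1 it was 0.03 ± 0.19, with opposite signs in the replicates (-0.31 and 0.37). The difference of these iron responses was -0.17 ± 0.27. PYE behaved otherwise, reading higher without iron than with iron in WT, by 1.24 ± 0.27 (adjusted p = 0.0819, and 0.0384 with replicate number as a block).

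**Figure D2:**
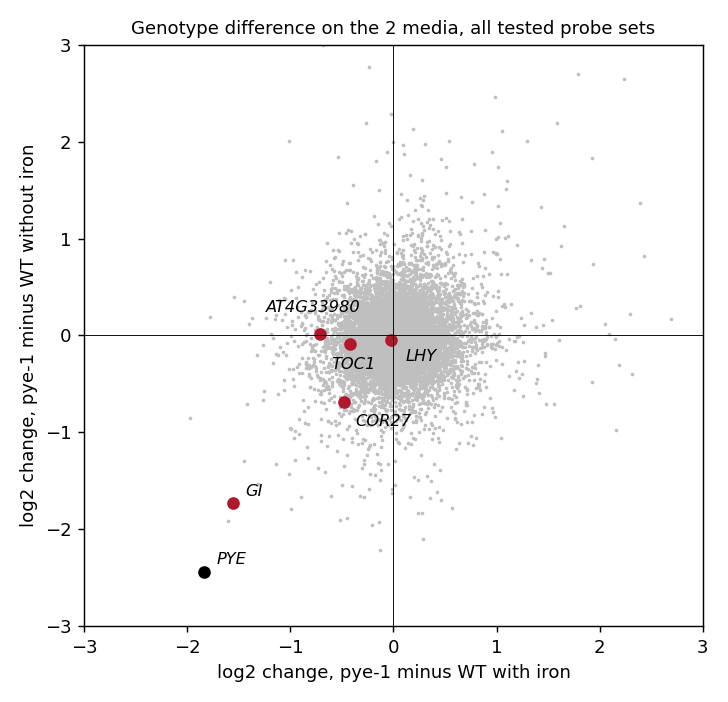
Log2 change of pye-1 against WT with iron (horizontal) and without iron (vertical) for the 15922 tested probe sets, in grey, with 5 clock genes in red and PYE in black. The axes share no array, 4 probe sets lie outside the axis limits, and CCA1 was not tested. GI lies far to the lower left at -1.56 and -1.73, beyond COR27 and short of PYE, while AT4G33980 and TOC1 lie left of the centre and near 0 on the vertical axis.

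COR27 was also lower in pye-1 on both media, by a smaller step. Without iron it read 71.1 and 64.6 in pye-1, against 113 and 106 in WT. With iron it read 56.9 and 78.1 in pye-1, against 85.0 and 101 in WT. All 4 pye-1 signals lay below all 4 WT signals. The log2 changes were -0.69 ± 0.22 without iron (-0.67 in replicate 1 and -0.71 in replicate 2) and -0.48 ± 0.22 with iron (-0.58 and -0.37). Roots without iron against roots with iron differed in COR27 by 0.02 ± 0.22 in pye-1, where the arrays overlapped, and by 0.24 ± 0.22 in WT, where they did not.

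AT4G33980 had another pattern, with its highest level in WT roots with iron and its lowest in pye-1 roots with iron. It read 125 and 140.4 in pye-1 with iron, against 199 and 238 in WT with iron, a change of -0.72 ± 0.16 (-0.67 in replicate 1 and -0.76 in replicate 2). Without iron it read 160.4 and 165 in pye-1, against 154 and 168 in WT, and the genotypes overlapped with a change of 0.02 ± 0.16. So COR27 and its relative AT4G33980 differed in where the genotypes were apart, on both media for COR27 and with iron for AT4G33980, a contrast between the genes that was not tested.

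The mean iron response of AT4G33980 had opposite signs in the genotypes, though the 95% interval in pye-1 included 0. In pye-1 the roots without iron lay above those with iron by 0.30 ± 0.16 (95% interval -0.06 to 0.66), 0.36 in replicate 1 and 0.23 in replicate 2. In WT the roots without iron lay below those with iron by a change of -0.44 ± 0.16, -0.37 in replicate 1 and -0.50 in replicate 2. Neither comparison had overlapping arrays, and the difference of the responses was 0.73 ± 0.23, with the same value of 0.73 in replicate 1 and 0.74 in replicate 2. Non-overlap of this kind, lower in WT and higher in pye-1, was found for 2.1% of tested probe sets.

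**Figure D3:**
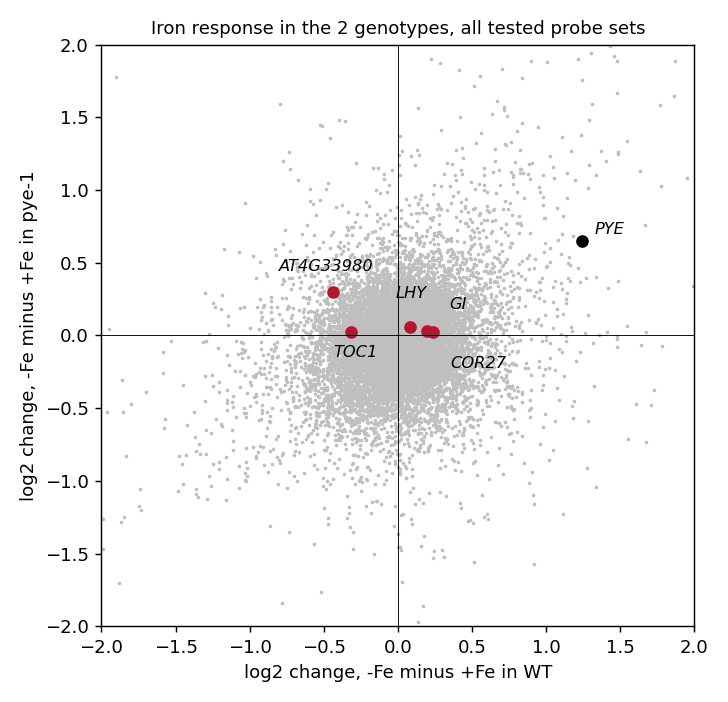
Log2 change of -Fe against +Fe in WT (horizontal) and in pye-1 (vertical) for the 15922 tested probe sets, in grey, with 5 clock genes in red and PYE in black. The axes share no array, and 67 probe sets lie outside the axis limits. AT4G33980 lies in the upper left quadrant at -0.44 and 0.30, TOC1 lies at -0.31 and 0.03, and GI, COR27 and LHY lie within 0.24 of 0 on both axes.

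TOC1, a pseudo-response regulator of the evening, had the brightest signals of the 6 probe sets and was highest in WT roots with iron. It read 476 and 542 in pye-1 with iron, against 652 and 711 in WT with iron. The change was -0.42 ± 0.15 (95% interval -0.77 to -0.08), -0.45 in replicate 1 and -0.39 in replicate 2, and it did not pass the test over all probe sets (limma adjusted p = 0.768, and 0.123 with the replicate block). Without iron TOC1 read 459 and 581 in pye-1, against 509 and 589.9 in WT, with overlapping arrays and a change of -0.09 ± 0.15 (95% interval -0.43 to 0.26; limma adjusted p = 0.981).

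In WT, TOC1 was lower without iron than with iron by a change of -0.31 ± 0.15 (95% interval -0.66 to 0.03; limma adjusted p = 0.622), with groups that did not overlap. In pye-1 the change was 0.03 ± 0.15 (95% interval -0.32 to 0.37; limma adjusted p = 0.984). Lower signals in WT without iron, with no overlap, were seen for TOC1, AT4G33980 and CCA1 among the 6 genes, for CCA1 with 1 signal under the control level, and for 18.7% of tested probe sets. TOC1 and AT4G33980 thus shared their highest group, WT with iron, but the interaction of TOC1, 0.34 ± 0.22, did not pass (limma adjusted p = 0.919).

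The dawn genes LHY and CCA1 were dim. LHY read 33.1 and 48.1 in pye-1 without iron, against 43.0 and 39.3 in WT without iron, and 30.6 and 47.8 in pye-1 with iron, against 44.6 and 33.8 in WT with iron. All 4 groups overlapped. The genotype changes of LHY were -0.04 ± 0.34 without iron (95% interval -0.81 to 0.72; limma adjusted p = 0.995) and -0.02 ± 0.34 with iron (95% interval -0.78 to 0.74; limma adjusted p = 0.999). These intervals are wider than the one of TOC1, so LHY is the less precisely measured gene.

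CCA1 read 32.2 and 21.9 in pye-1 without iron, against 23.3 and 8.29 in WT without iron. With iron it read 19.1 and 20.1 in pye-1, against 24.9 and 24.1 in WT. The signal of 8.29, in WT replicate 2 without iron, lay under that array's control level, and CCA1 missed the filter on low signals, so it was not tested. Its genotype changes, taken from a fit without the filter, were 0.94 ± 0.59 without iron and -0.32 ± 0.59 with iron.

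**Figure D4:**
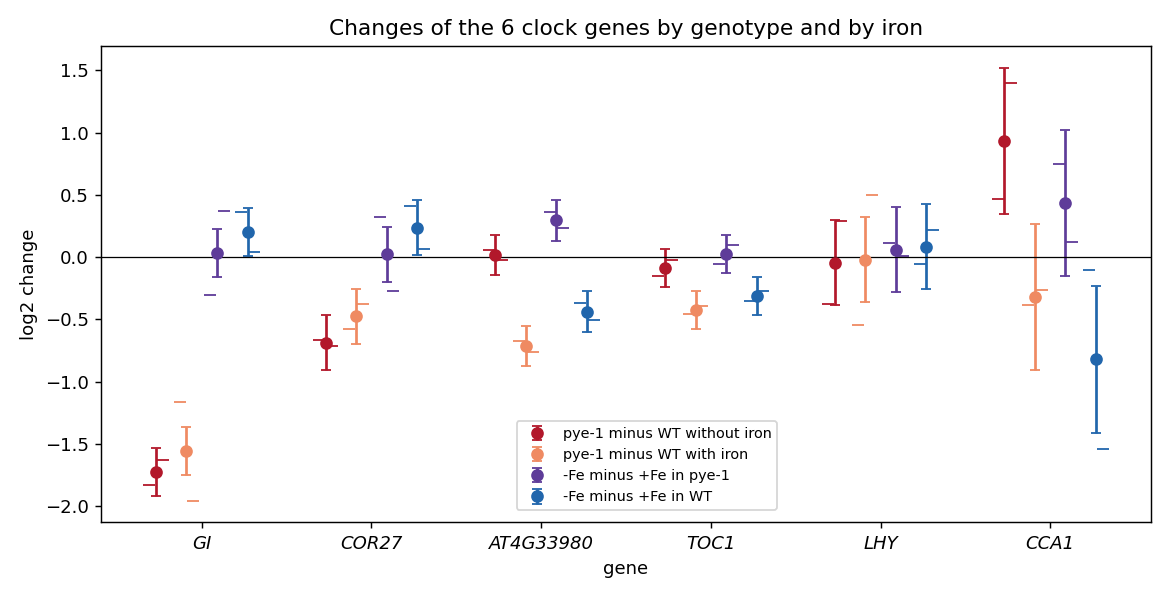
Log2 changes of the 6 genes (points) with the standard error of the limma fit (bars), and the changes in replicate 1 and 2 as short dashes left and right of each point. GI has the largest genotype changes, -1.73 and -1.56, with iron changes of 0.03 and 0.20. The errors of LHY and CCA1, 0.34 and 0.59, are the widest.

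The 3 clock lists compiled for this comparison hold 30 loci, and 8 of them were read here. They are the 3 genes read by array ID and 5 found through the platform annotation, GI, COR27, AT4G33980 and the MYB-like factors RVE5 and RVE6. RVE6 belongs with RVE8 to the activators of evening genes, and RVE5 is a related factor. RVE5 ranged from 137 to 188 and RVE6 from 95.9 to 153 over the arrays. Their genotype changes were between -0.18 and 0.13, with limma adjusted p from 0.979 to 0.997. The pseudo-response regulators other than TOC1 and the evening complex genes ELF3, ELF4 and LUX have no named probe set here.

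Counts over the 7 clock probe sets that passed the filter include GI, COR27 and AT4G33980, which were selected on measured values, so nothing is read from those 3. The other 4 (TOC1, LHY, RVE5 and RVE6) had no adjusted p under 0.05 from limma over all tested probe sets in any of the 5 comparisons, and TOC1 with iron had an unadjusted p under 0.05. Between genotypes 1 of the 7, the selected GI, was past the adjusted threshold on each medium, where 0.465% of all tested probe sets were without iron and 0.0628% with iron. Without the second WT or the second pye-1 array with iron, GI was not past it with iron, at changes of -1.38 and -1.34. For the iron response in WT, in pye-1 and for the interaction 0 of the 7 were past it, against 0.973%, 1.05% and 0.0879% of tested probe sets.

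With replicate number as a block, the probe sets past the threshold between genotypes were 273 in place of 74 without iron and 55 in place of 10 with iron. For the iron response they were 485 in place of 155 in WT and 422 in place of 167 in pye-1, and for the interaction 56 in place of 14. The adjusted counts of clock probe sets stayed the same under the block. At an unadjusted p under 0.05, the 7 held COR27 and GI between genotypes without iron, and TOC1, AT4G33980 and GI with iron, where 6.99% and 5.63% of all tested probe sets were past it. For the iron response in WT and for the interaction they held AT4G33980, against 8.73% and 5.75% of all, and in pye-1 none, against 8.58%. The block made these counts 2 and 4 between genotypes without and with iron, and 2, 0 and 2 for the iron response in WT, in pye-1 and the interaction. Apart from TOC1, the genes named here were selected on measured values, so nothing is read from them.

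With iron, all 6 genes were at a change below 0 in pye-1 against WT, from -1.56 to -0.02 with a median of -0.45, while 46.7% of tested probe sets were below 0 and the median of all was 0.02. In 5 of the 6, all but LHY, the pye-1 arrays lay below the WT arrays without overlap, as in 14.5% of tested probe sets. CCA1, 1 of these 5, missed the filter on low signals, is not among the tested probe sets and changed by -0.32 ± 0.59. Without iron 4 of the 6 were below 0, with a median of -0.06, while 55.0% of tested probe sets were below 0 and the median of all was -0.03. In 2, GI and COR27, the pye-1 arrays lay below the WT arrays without overlap, as in 20.2% of tested probe sets. In pye-1 all 6 were above 0 for roots without iron against roots with iron, from 0.02 to 0.44 with a median of 0.05, where 57.9% of tested probe sets were below 0. Leaving out 1 array turned the direction of GI (-0.19), COR27 (-0.20), TOC1 (-0.15) and LHY (-0.26). The upper end of 0.44 ± 0.59 is that of the dim, untested CCA1. The 6 genes were partly selected on measured values, so the counts are descriptive.

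Other gene groups gave a measure of what else moved with the genotype. Of 10 green tissue markers, 3 have a named probe set (RCA, LHCB4.1 and PSAN), and none was past limma's threshold between genotypes (at an unadjusted p under 0.05, 0 without iron and 1 with iron). Their summed signal was 566 to 629 in pye-1 without iron, against 647 to 674 in WT without iron, and 750 to 802 in pye-1 with iron, against 888 to 920 in WT with iron. LHCB4.1, a light-harvesting protein, had the lower signals in pye-1 on both media, with changes of -0.24 ± 0.15 and -0.45 ± 0.15 without and with iron (limma adjusted p = 0.876 and 0.692). The genotypes overlapped on both media for RCA, with changes of -0.10 ± 0.17 without iron and -0.01 ± 0.17 with iron. They also overlapped for PSAN, with changes of 0.07 ± 0.18 without iron and -0.10 ± 0.18 with iron. Between media, PSAN, a photosystem I subunit, was lower without iron by changes of -0.93 ± 0.18 in WT (limma adjusted p = 0.0372) and -0.76 ± 0.18 in pye-1 (limma adjusted p = 0.103, and 0.0304 with the block), beside the lower TOC1 and AT4G33980 signals in WT without iron. The root hair gene EXPA18 had changes without iron of -0.93 ± 0.17 in WT (limma adjusted p = 0.0310) and -0.58 ± 0.17 in pye-1 (limma adjusted p = 0.261, and 0.0160 with the block). With iron its signals were lower in pye-1 than in WT without overlap, by a change of -0.42 ± 0.17 (limma adjusted p = 0.845), the size seen for TOC1. For EXPA7 the genotypes overlapped on both media, with changes of -0.17 ± 0.19 with iron and 0.03 ± 0.19 without iron (limma adjusted p = 0.997 and 0.995). EXPA7 and EXPA18 summed to 694 to 885 in pye-1 without iron, against 751 to 828 in WT without iron, and to 922 to 1089 in pye-1 with iron, against 1056 to 1413 in WT with iron. The part of green tissue RNA or of root hair RNA in the changes of the clock genes was not tested. Fewer cells of a type and less RNA per cell cannot be told apart in whole roots.

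The cold-regulated list, whose name COR27 shares, had no member past limma's threshold between genotypes, and 0 at an unadjusted p under 0.05. Of its 15 loci, 4 have a single-gene probe set, and the dehydrin genes COR47 and LTI30 were bright enough to test. COR47 had genotype changes of -0.01 ± 0.13 without iron and -0.17 ± 0.13 with iron, and LTI30 of -0.29 ± 0.14 and -0.28 ± 0.14, with limma adjusted p from 0.747 to 0.997. Between media, COR47 was lower without iron by a change of -0.33 ± 0.13 in WT (limma adjusted p = 0.474, and 0.0377 with the block). In pye-1 its change was -0.18 ± 0.13. The changes of LTI30 between media were -0.28 ± 0.14 in WT and -0.30 ± 0.14 in pye-1. COR15A and COR15B read 1.08 to 28.9 and were too dim. HYH, a light-signalling bZIP factor and the 1 named probe set of 11 light loci, changed by -0.07 ± 0.17 without iron and -0.20 ± 0.17 with iron (limma adjusted p = 0.990 and 0.997). CDF5, the 1 named probe set of 16 clock output loci, was too dim.

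Genes whose log2 signal over the 8 arrays was most like that of GI were ranked among 8753 single-gene probe sets by Pearson's r, as a measure of likeness with no test. GI falls into separate clusters by genotype, so r here mostly ranks genes by how cleanly the genotypes part. The 10 most like GI were AT1G56310, AT1G17160, AT2G01060, the cytochrome P450 gene CYP71B26, AT3G26000, PYE itself, AT3G47650, AT1G05710, AT3G26670 and AT5G35940, with r from 0.928 to 0.963. Among clock genes COR27 ranked 44 (r = 0.847), AT4G33980 452 (r = 0.602), TOC1 514 (r = 0.585) and LHY 4535 (r = -0.02).

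The likeness was in the parting of the arrays by genotype rather than in the size of the change. AT3G47650, the gene next to PYE, had genotype changes as large as those of GI, -1.72 ± 0.24 without iron and -1.59 ± 0.24 with iron. It read 77.0 and 46.6 in pye-1 without iron, against 191 and 205 in WT without iron. AT5G35940 followed with changes of -1.32 ± 0.25 and -1.14 ± 0.25. For the other 7 apart from PYE, the changes were between -0.52 and -0.08. The 5 least like GI, higher in pye-1, were AT1G13190, AT1G80040, AT3G30440, AT2G07705 and AT5G16200, with r from -0.973 to -0.933 and changes from 0.11 to 1.03.

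**Figure D5:**
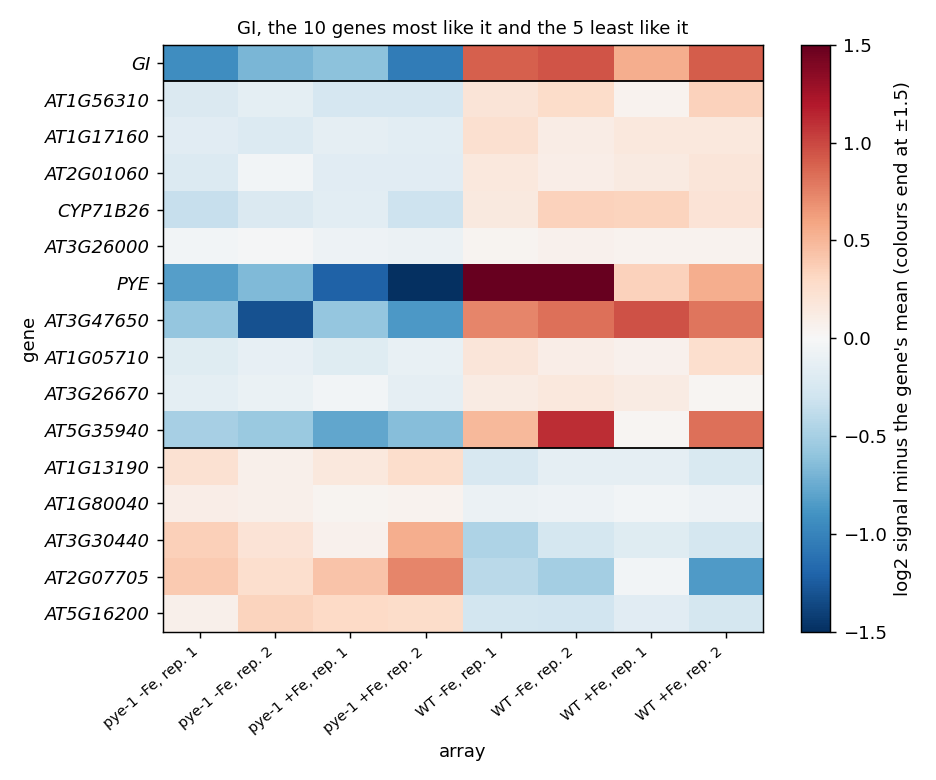
Log2 signal minus each gene's mean over the 8 arrays (colour, ends at ±1.5) for GI, the 10 genes most like it and the 5 least like it. The 4 pye-1 arrays stand left of the 4 WT arrays. The colours part at the genotype boundary in every row, and they are strong in GI, PYE, AT3G47650 and AT5G35940 and pale in most others.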

How the data were processed

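The deposited signal intensities are MAS5 values per the submitters' processing notes, which give no version. The authors had scaled them, as the mean of each array with 2% trimmed at each end was 250.02. RNA was extracted with a column kit and labelled with biotin after 1 amplification cycle, per the labels' protocols. The table holds no detection calls.

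The deposited intensities were log2-transformed and not normalized again. Left out were 64 control probe sets and, of the remaining 22746, the dimmest 30% by mean log2 value, which lay under a signal of 23.3. The fits used limma 3.58.1 under R 4.3.3, with 1 mean per group over 8 arrays, 5 contrasts, an intensity trend and Benjamini-Hochberg adjustment over all 15922 probe sets. The fit had 4 residual and 6.32 prior degrees of freedom, and the code was tested on simulated data. An exact test of 2 against 2 arrays cannot pass the threshold, so none was run. Names come from the platform annotation, updated by gene ID through the RefSeq gene table of TAIR10.1. Of the 22746, 13513 name 1 gene, 503 several and 8730 none. No coordinates are given because no genome build is named for the array.

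In each of the 6 pairs of groups, arrays with the same number deviated together (correlations from 0.178 to 0.302). The changes given for replicate 1 and replicate 2 pair the arrays by these numbers, taken from the titles. The main fit has no term for the replicate number. Its standard errors and adjusted p therefore leave the pairing out, unless the block is named. The replicate block is an alternative, given beside a result where it changes a call or moves a count of calls by over 1.5 times. Signal of a ribosomal RNA control was 242 to 565 on replicate 1 arrays and 1691 to 4047 on replicate 2 arrays.

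The genes named are PYE, the 6 genes, every listed clock gene with a single-gene probe set, the up to 4 members of other lists with the smallest p, and the genes most and least like GI. AT3G47650 and GI's neighbours were singled out after their values were seen. Members and lists were chosen with earlier results of these data known. Alternatives changed the block, trend, filter, dim signals, pseudocount, normalization and arrays included. The planned promoter motif search was not run, since no sequence table was at hand.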

Additional observations from a re-analysis of the deposited data

Results flagged for a closer look

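The iron response of AT4G33980 in pye-1 minus that in WT was 0.73 ± 0.23 on the log2 scale, because all pye-1 arrays without iron lay above those with iron and all WT arrays without iron lay below those with iron. The gene was selected on measured values of these arrays, so the difference is a description with no p of its own. In the limma fit it was not past the adjusted threshold, in the main fit or with the replicate block.

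For CCA1 the pye-1 arrays also lay higher and the WT arrays lower without iron than with iron, with a difference of 1.26 ± 0.83. In WT the change was -0.10 in replicate 1, and in replicate 2 it rests on a signal of 8.29 under the control level of 18.5. CCA1 missed the filter on low signals, the difference was not tested, and no direction is drawn from it.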

How the results depend on the processing

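The 25 log2 changes of the 5 tested genes were recomputed under 15 alternatives, 8 of which left out an array. Of the 365 values obtained, 358 kept their direction and side of the threshold or, where uncalled, moved by less than 1 standard error. A further 4 uncalled values crossed 0 by more than that when 1 array was left out, for GI (-0.19), COR27 (-0.20) and TOC1 (-0.15) in the iron response of pye-1 and for TOC1 between genotypes without iron (0.08). The other 3 are changes of GI with iron, past the threshold in the main fit but not without the intensity trend. GI was also not past it without WT +Fe replicate 2 or without pye-1 +Fe replicate 2, at changes of -1.38 and -1.34. Without the trend 0 clock genes were called there, with 4 at an unadjusted p under 0.05. Because GI was chosen for this comparison, its call and the loss of it are not read as a result. The change of GI stayed between -1.78 and -1.34 with iron and between -1.85 and -1.61 without iron.

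With the replicate block, probe sets called were 55 (pye-1 against WT with iron), 273 (without iron), 485 (iron response in WT), 422 (in pye-1) and 56 (interaction), against 10, 74, 155, 167 and 14, and the block changed no call of a clock gene. Without the intensity trend the last 4 were 26, 90, 99 and 0 (962 at an unadjusted p under 0.05). Leaving out the dimmest 50% of the probe sets gave 5 with iron and 8 for the interaction, and no filter gave 8 for the interaction. With 1 array left out the counts ran from 5 to 17, 20 to 88, 83 to 173, 87 to 154 and 0 to 10. The counts moved by over 1.5 times without WT +Fe replicate 1 or 2 or pye-1 +Fe replicate 2 (with iron), without any of the 4 -Fe arrays (without iron), without WT +Fe replicate 1 or either WT -Fe array (WT), without pye-1 +Fe replicate 2 or either pye-1 -Fe array (pye-1), and without any array but pye-1 +Fe replicate 2 (interaction). The causes were not tested. LHY and CCA1, close to the control level, have wide errors.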

Other observations

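GI was chosen for its difference between genotypes, so its neighbours are described by their own values. Of the 15 protein-coding genes on each side of GI in the order of RefSeq's TAIR10.1 gene table, 15 have a named and tested single-gene probe set. Their genotype changes had a median of -0.06 without iron (-0.54 to 0.44) and -0.05 with iron (-0.55 to 0.75). By limma 0 of the 15 were past the adjusted threshold on either medium, with 1 without iron and 0 with iron at an unadjusted p under 0.05. Beside PYE the 15 genes measured in the same window had medians of 0.04 without iron (-1.72 to 0.70) and 0.02 with iron (-1.59 to 0.25). By limma 2 of these were at an unadjusted p under 0.05 on each medium. AT3G47650 stood apart there with -1.72 and -1.59, and it was the 1 neighbour called, without iron. AT3G47510 was at -0.85 ± 0.22 with iron and AT3G47630 at 0.70 ± 0.19 without iron.

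Among the 10 genes most like GI, 5 lie on chromosome 3, where PYE lies and where 20.0% of the 8753 ranked probe sets map. These 5 are PYE, its neighbour AT3G47650, CYP71B26 (AT3G26290), AT3G26000 and AT3G26670, of which the last 3 have locus numbers close to each other. This was noticed after the ranking was seen, and it was not tested.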
